A study of Mus musculus with 12 samples.

Results

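The genes described here encode parts of the cilium whose symbols carry one of 5 family names: intraflagellar transport (Ift), Bardet-Biedl syndrome (Bbs), cilia and flagella associated protein (Cfap), axonemal dynein heavy chain (Dnah) and radial spoke head (Rsph). A protein-coding gene was taken when its symbol begins with Rsph, or with Ift, Bbs, Cfap or Dnah followed by a digit, whatever its level. That rule gave 65 genes of the 20819 in the table: 14 Ift, 8 Bbs, 26 Cfap, 11 Dnah and 6 Rsph genes. Cilia genes with other names, such as Wdr19 or Dync2h1, are described separately.

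The samples were tubuloids, hollow epithelial cultures that were grown in Matrigel from dissociated kidney cortex of 4 wildtype mice. They received vehicle, myoglobin, the haem protein of muscle that the study used to injure tubules, or myoglobin together with 100 nM dexamethasone, a synthetic glucocorticoid, and RNA was taken after 12 h. Each of the 3 groups had 4 libraries, and all were wildtype primary cultures of cells labelled as renal tubular epithelium. Strain, age and the myoglobin dose are not given in the sources used here, and no group received dexamethasone without myoglobin. The libraries of a group are numbered 1 to 4, which is not said to stand for a mouse, so p-values measure only the spread between these samples, and this spread may be technical.

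A cilium is a microtubule bundle, the axoneme, that grows from a basal body and is covered by membrane. Intraflagellar transport trains carry its parts, with the IFT-B complex moving towards the tip and the IFT-A complex needed for the way back, and the BBSome is a coat-like complex that moves membrane proteins out of the cilium. Tubule cells of the kidney carry a single immotile primary cilium, and defects of its parts cause cystic kidney disease. Motile cilia of airway, ependyma and sperm flagella have in addition dynein arms, radial spokes and a central pair of microtubules, and mature mouse tubules are not known for such cilia.

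RFX transcription factors bind promoters of many cilia genes. RefSeq promoters of 300 bases (250 before to 50 after the start, build GRCm38.p6) were on hand for 54 of the 65 genes. The RFX half-site, searched as GTTGCC on both strands, occurred in 19 of these 54 promoters (35.2%) and in 14.1% of all 27025 promoters. Of the promoters by family, 5 of 11 Ift, 3 of 8 Bbs, 7 of 21 Cfap, 3 of 11 Dnah and 1 of 3 Rsph held it. The paired site GTTNCCNNGGNAAC, which can overlap a half-site, occurred in those of Bbs7 and Cfap298 (3.7%, against 0.529% of all). A match is a description of letters, not a binding site.

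The following stretches lie before the gene start of a transport gene with the paired site (Bbs7), a transport gene with a half-site (Ift140), 2 genes that fell (Cfap20, Cfap44) and the gene with the largest rise (Cfap69). Capitals mark the paired site in Bbs7 and the half-site, read on the opposite strand as GGCAAC, in the others. The searched window of Cfap69 held no match to any motif searched, and its stretch has no capitals. The positions in GRCm38.p6 are chr3:36613478-36613545 (minus strand) for Bbs7, chr17:25015942-25016017 (plus) for Ift140, chr8:95434923-95434998 (minus) for Cfap20, chr16:44394635-44394710 (plus) for Cfap44 and chr5:5664240-5664339 (minus) for Cfap69.
Bbs7: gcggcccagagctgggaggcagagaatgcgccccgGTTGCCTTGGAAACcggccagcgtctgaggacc
Ift140: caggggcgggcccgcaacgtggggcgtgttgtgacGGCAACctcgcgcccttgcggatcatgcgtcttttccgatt
Cfap20: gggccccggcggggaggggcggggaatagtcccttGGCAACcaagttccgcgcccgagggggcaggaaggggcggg
Cfap44: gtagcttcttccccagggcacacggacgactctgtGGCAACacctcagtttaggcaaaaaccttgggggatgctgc
Cfap69: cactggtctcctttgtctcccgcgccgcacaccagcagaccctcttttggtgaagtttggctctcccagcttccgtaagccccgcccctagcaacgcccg

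The half-site was present both in genes that fell (Cfap20, Cfap44, Dnah7b) and in genes that changed in none of the comparisons (Ift140, Ift57, Cfap298). Further motifs were searched on both strands. A glucocorticoid response element, GNACANNNTGTNC, occurred in the promoter of 1 of the 54 genes, Cfap298 (1.85%, against 0.537% of all promoters). An antioxidant response element, TGACNNNGC, occurred in 9 (16.7%, against 14.0%).

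Values are normalised read counts as deposited, that is, each gene's reads scaled by a library-wide factor and rounded to whole numbers. They summed to 5.25 to 5.73 M per library, and the reads before scaling were estimated at 4.85 to 5.92 M in 11 libraries and at 3.26 M in replicate 4 with both agents. That library stands apart, with 2179 genes at 0 against 1051 to 1544 in the others. The labelled tissue was checked by its markers: all 10 tubular epithelium markers (such as Cdh1, Pax8 and Epcam) were tested, and their summed value was 11207 to 11379 with vehicle, 10215 to 10907 with myoglobin and 10927 to 14866 with both. Summed podocyte markers were 715 to 1046, 632 to 848 and 663 to 764 in the same order, and immune markers 570 to 687, 480 to 582 and 526 to 624. Fibroblast markers summed to 98 to 172, 94 to 151 and 64 to 97, and endothelium markers to 57 to 63, 30 to 62 and 34 to 49.

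In vehicle tubuloids, transport genes were well expressed and motile axoneme genes mostly low. Per kilobase of exon, the median vehicle value was 66.0 over the Ift genes, 30.8 over the Bbs genes, 17.8 over the Rsph genes, 4.54 over the Cfap genes and 1.34 over the Dnah genes. The Ift genes kept to a narrow range, from 37.5 ± 1.54 (SD, n = 4) per kilobase for Ift80 to 136 ± 3.78 for Ift52, both IFT-B subunits. Ift20, an IFT-B subunit that is also found at the Golgi, had 130.0 ± 11.1, a spread that reaches the level of Ift52, and Ift43 of IFT-A had 121 ± 5.21. Among Bbs genes the level per kilobase was highest for the BBSome core subunit Bbs2 at 73.1 ± 4.54 and lowest for Bbs9 at 18.1 ± 0.460. Bbs5, a BBSome subunit that binds phosphoinositides, had 41.6 ± 0.699 and Bbs12, a chaperonin-like assembly factor, 36.4 ± 6.13.

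The Cfap genes had the widest span. Their 3 highest levels per kilobase were those of Cfap298, a cytoplasmic dynein assembly factor (144 ± 14.1), Cfap36, which binds the small GTPase Arl3 (89.7 ± 3.26), and Cfap20 of the doublet inner junction (86.1 ± 3.83). Of the exonic bases of Cfap298, 53.56% are shared with genes on the other strand, so its level is uncertain unless the counting used strand, which is not given in the sources used here. The lowest was Cfap100, an inner dynein arm factor, at 0.364 ± 0.243. All Dnah genes were low per kilobase: Dnah12 had 3.79 ± 0.529, Dnah11 3.65 ± 0.927 and Dnah1 3.01 ± 0.170, and the first pair did not differ beyond their spread. The outer arm chain Dnah9 was lowest at 0.016. Radial spoke genes went from 42.9 ± 4.57 for the spoke head gene Rsph9, through 26.9 ± 1.58 for Rsph3b and 18.6 ± 1.35 for Rsph3a, to 1.78 ± 0.475 for Rsph4a.

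**Figure D1:**
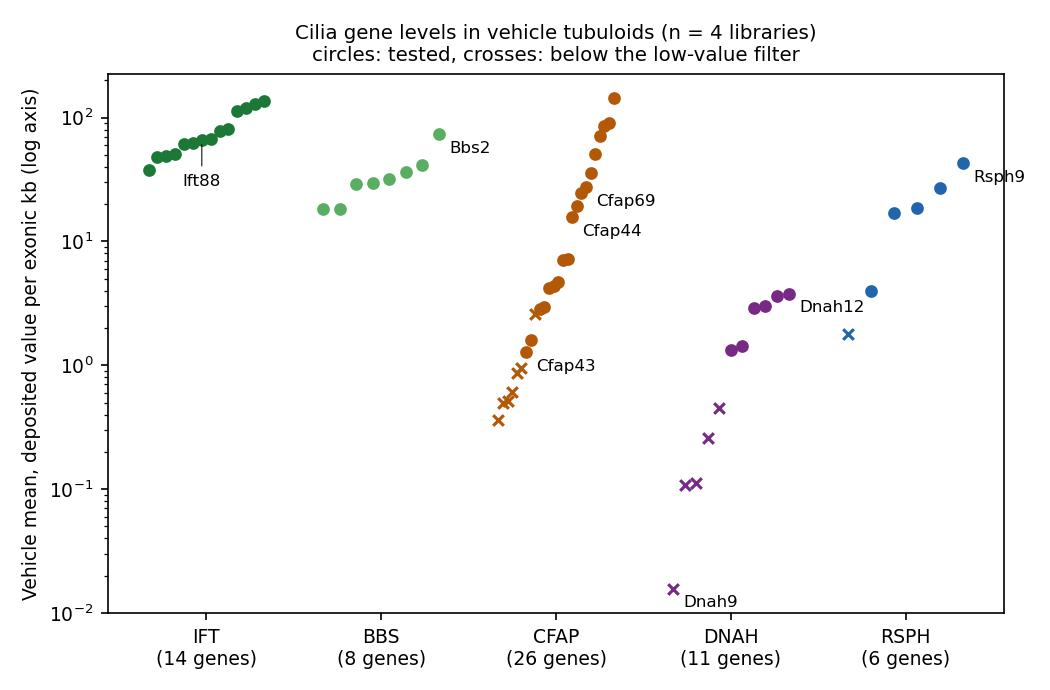
Vehicle mean (n = 4 libraries) of each of the 65 cilia genes as deposited value per exonic kilobase on a log axis, by family, with circles for tested genes and crosses for genes below the low-value filter. Ift genes lie between 37.5 and 136, and the Dnah genes all lie at or below 3.79.

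A gene was tested when its value was at least 10 in at least 4 of the 12 libraries. All 14 Ift and 8 Bbs genes passed, with 19 of 26 Cfap, 6 of 11 Dnah and 5 of 6 Rsph genes, 52 in all. The other 13 (Dnah5, Dnah7c, Dnah9, Dnah10, Dnah17, Cfap57, Cfap61, Cfap77, Cfap100, Cfap206, Cfap221, Cfap299 and Rsph4a) had values of 0 to 11 in every library. Closest under the limit were Rsph4a, with 3 libraries of at least 10, and the microtubule inner protein gene Cfap77, with 1. Closest above it were Cfap43, with 4 such libraries (1 with vehicle and 3 with myoglobin), and Cfap52, with 5 (4 of them with vehicle). Both passed mainly through the group where they were high, so counts that include them and their p-values below are descriptions and support nothing.

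Of the outer arm chains, Dnah5 and Dnah9, which mark cells with many motile cilia, were near 0. Dnah11, also of the outer arm, had 41, 50, 48 and 72 with vehicle. Dnah5 had values of 3, 1, 1 and 2 in the vehicle libraries and Dnah9 had 1, 0, 0 and 0. Foxj1, the transcription factor of motile ciliogenesis, was higher at 306, 301, 363 and 350. Of 16 multiciliated cell markers 11 were in the table and 4 were tested. Among those with low values, vehicle means were 2.5 for Ccno, 6.25 for Deup1 and 5.75 for Tekt1. Of the 4 tested, only Foxj1 and Cfap126 are given here by name. Cfap126, a tested member that is also on this marker list, was not near 0, with 40, 41, 43 and 50 in the vehicle libraries. Their summed value, most of it Foxj1, was 411 to 499 with vehicle, 398 to 444 with myoglobin and 436 to 472 with both, and none of the 4 was called in any comparison.

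The first comparison asks what myoglobin did to these genes. Of the 52 tested genes, 2 rose (3.85%) and 7 fell (13.5%), with limma adjusted p below 0.05. Over all 14558 tested genes 8.71% were called higher and 9.62% lower, 18.3% in either direction, so the share of cilia genes called lower lay near that of all genes. Cfap69 and Cfap47 rose, and Dnah12, Dnah1, Dnah7b, Cfap44, Bbs2, Ift122 and Cfap20 fell. Without replicate 4 of both agents, which enters the shared spread, 3 rose and 8 fell. The fold change was negative for 41 of 52 cilia genes (78.8%) and for 49.4% of all tested genes, and its median was -0.13 on the log2 scale against 0.0026. Vehicle and myoglobin values did not overlap for 13 of 52 genes (25%), and for 25.0% of all tested genes.

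**Figure D2:**
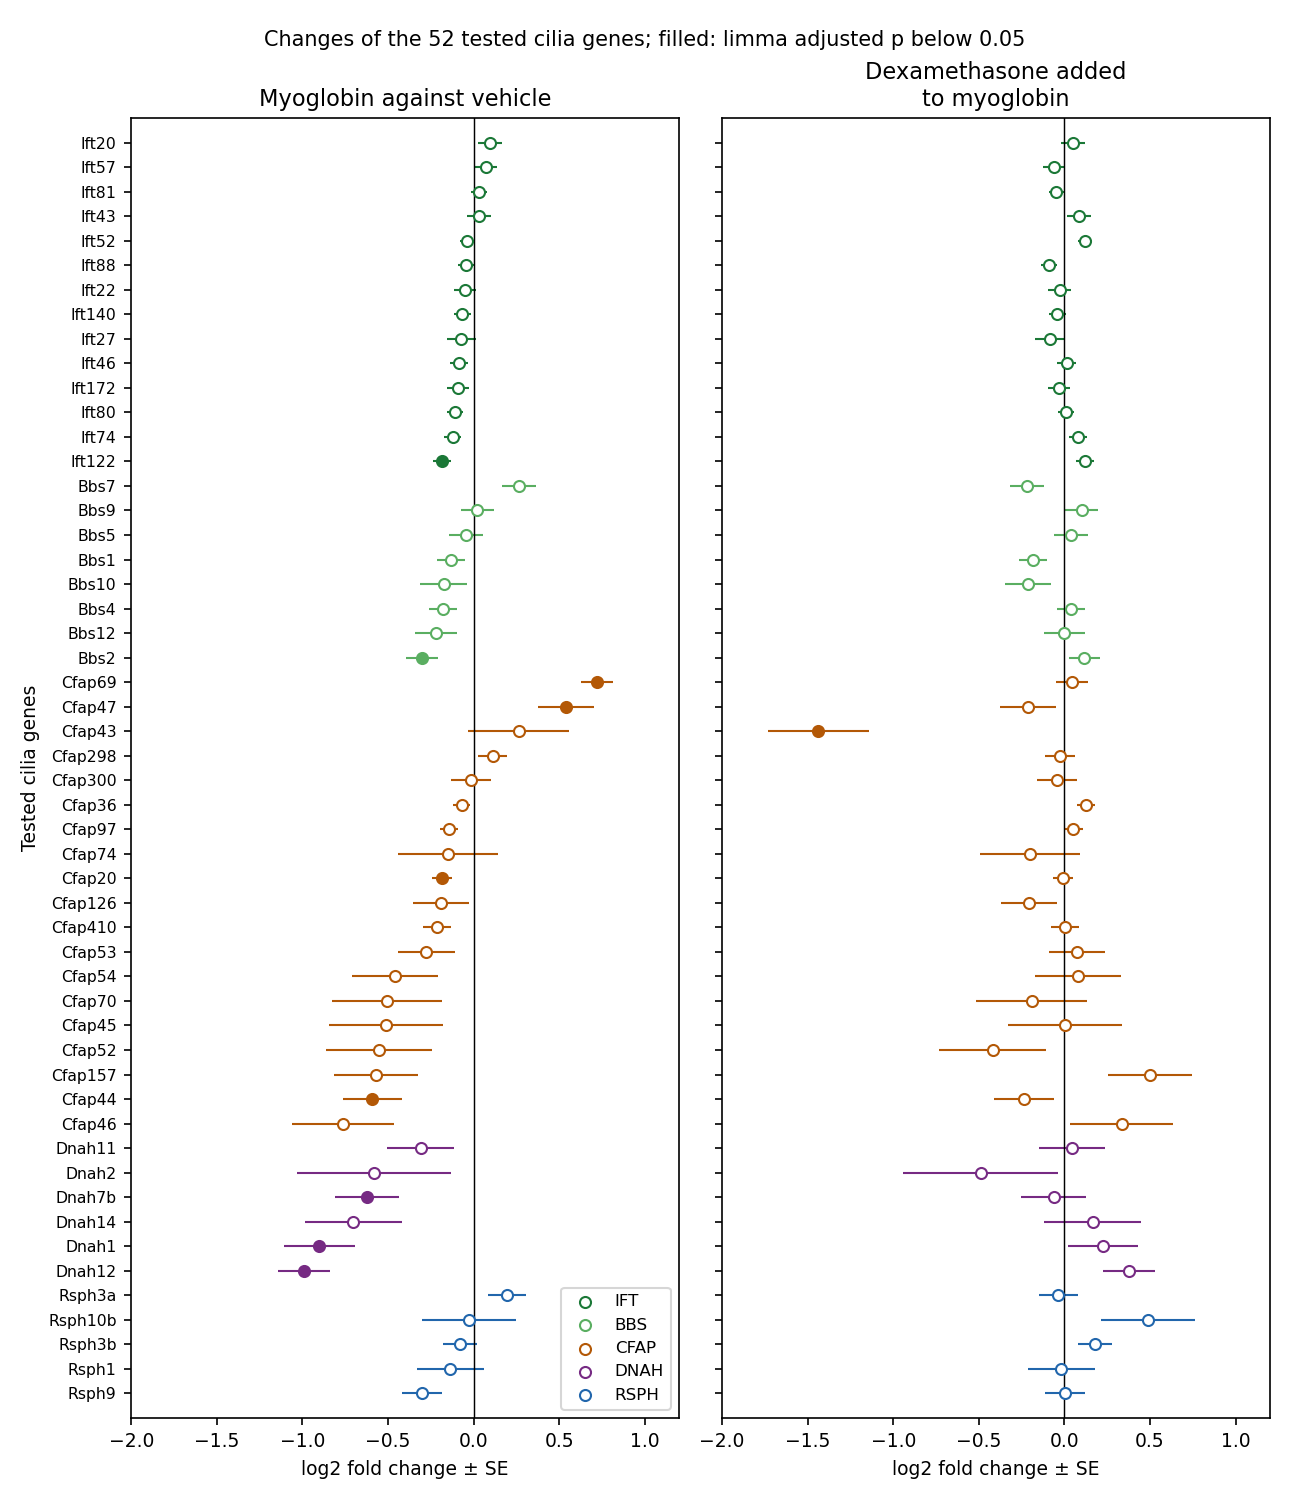
The log2 fold change ± SE of each of the 52 tested cilia genes for myoglobin against vehicle (left) and dexamethasone added to myoglobin (right), by family, filled where limma's adjusted p was below 0.05. On the left 2 genes are filled above 0 and 7 below, and on the right only Cfap43 is filled.

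Axonemal dyneins had the largest falls among the called cilia genes. Dnah12, an inner arm heavy chain (chr14:26693274-26891703 in mm10, plus strand), had values of 45, 52, 48 and 37 with vehicle, 22, 21, 25 and 21 with myoglobin, and 28, 27, 34 and 28 with both agents. Every vehicle library lay above every treated one, and every library with both agents lay above every myoglobin library. With myoglobin it fell by 0.99 ± 0.15 (SE) on the log2 scale (limma adjusted p = 0.000235), and this call was made in every alternative run. Dnah1, also of the inner arm (chr14:31260375-31323896, minus strand), had 37, 38, 40 and 42 with vehicle, 31, 20, 19 and 15 with myoglobin, and 28, 29, 20 and 21 with both. Its groups did not overlap vehicle either, and the myoglobin change was -0.90 ± 0.21 (limma adjusted p = 0.00592). With replicate 2 or 3 of all groups left out that p was 0.0515 or 0.0607. Dnah7b had 58, 63, 57 and 55 with vehicle, 46, 37, 25 and 46 with myoglobin, and 27, 42, 39 and 37 with both. It fell by 0.62 ± 0.19 with myoglobin (limma adjusted p = 0.0316), without overlap. The fall of Dnah7b rests on single libraries: the adjusted p was 0.0625, 0.0875 and 0.0663 without vehicle replicate 1, 2 or 3, 0.0691 and 0.0976 without myoglobin replicate 2 or 3, and 0.0764 with quantile normalization. With replicate 2 or 3 of all groups left out it was 0.177 or 0.19. Dnah7b has near-identical copies in the genome, Dnah7a and Dnah7c, and reads could have been split between them.

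The other tested heavy chains had negative changes that were not called. Dnah2 changed by -0.58 ± 0.45, Dnah14 by -0.70 ± 0.28 and the outer arm chain Dnah11 by -0.31 ± 0.19 with myoglobin. Of the 6 tested Dnah genes 3 fell and 0 rose, all 6 changes were negative, and the median was -0.66. Over all tested genes 9.62% were called lower and 8.71% higher, and 49.4% of changes were negative. Summed over all 11 Dnah genes, the value was 255, 261, 243 and 254 with vehicle, 184, 169, 134 and 170 with myoglobin, and 174, 170, 183 and 162 with both. The sum with myoglobin was 0.649 times the vehicle mean and that with both agents 0.680 times, and neither group overlapped vehicle. The same ratios were 0.959 and 0.967 for the Ift, 0.921 and 0.903 for the Bbs, 0.974 and 0.980 for the Cfap and 0.954 and 1.023 for the Rsph genes. The Cfap sum joins classes that differed. Ratios were 0.694 and 0.553 for its dynein tethers, 0.859 and 0.844 for doublet genes and 0.972 and 0.948 for central pair genes. They were 1.054 and 1.035 for dynein assembly genes and 1.042 and 1.087 for other Cfap genes, which include Cfap69. In RNA of whole cultures, fewer cells of a type and less RNA per cell cannot be told apart.

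**Figure D3:**
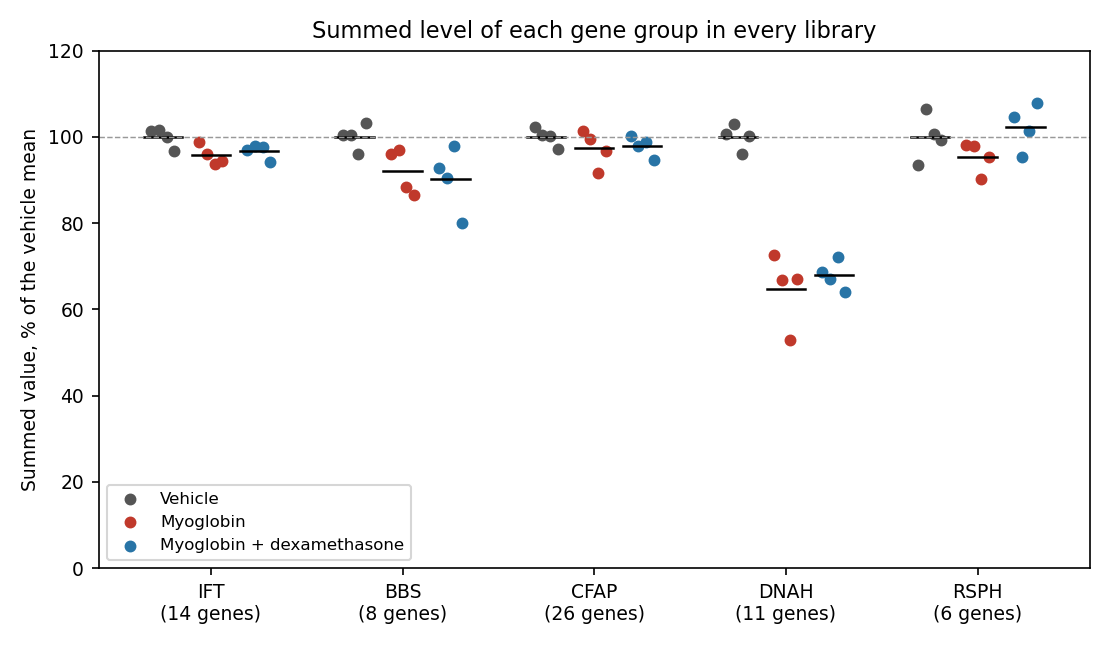
Summed deposited value of each family in every library, as percent of its vehicle mean (bars: group means, n = 4). The Dnah sums with myoglobin (134 to 184 in deposited values) and with both agents (162 to 183) all lie below those with vehicle (243 to 261), and the group means of the other families lie at 0.903 to 1.023 times the vehicle mean (dashed line).

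Several measurements moved with these falls. Distal nephron markers were lower with myoglobin: of 10 tested, 7 fell and 1 rose, with a median of -1.12, and their summed value was 4433 to 5268 with vehicle, 3663 to 4044 with myoglobin and 4715 to 5308 with both. None of the 10 was at 0 in all libraries. Summed proximal tubule markers were 936 to 1107, 1121 to 1270 and 1159 to 1243 in the same order. Of 6 tested 2 rose and 2 fell with myoglobin, and their median was negative at -0.425 although the sum was higher. With both agents against vehicle 7 of the 10 distal markers were still lower and 2 higher, with a median of -0.88. The Dnah genes had a median exonic length of 15600 bases, against 4250 for all tested genes, and length itself was not tested. Genes with few reads per base leaned downwards in the whole table. Of 4478 tested genes with under 0.03 mean deposited value per exonic base, 12.4% were called lower and 5.76% higher with myoglobin, with a median of -0.12, and with quantile normalization the lower share was 10.1% and the median -0.034. Of the 27 cilia genes under 0.03, 4 fell (14.8%) and the median was -0.28, or 3 and -0.16 with quantile normalization. The part of nephron segment or read density in the falls was not tested.

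**Figure D4:**
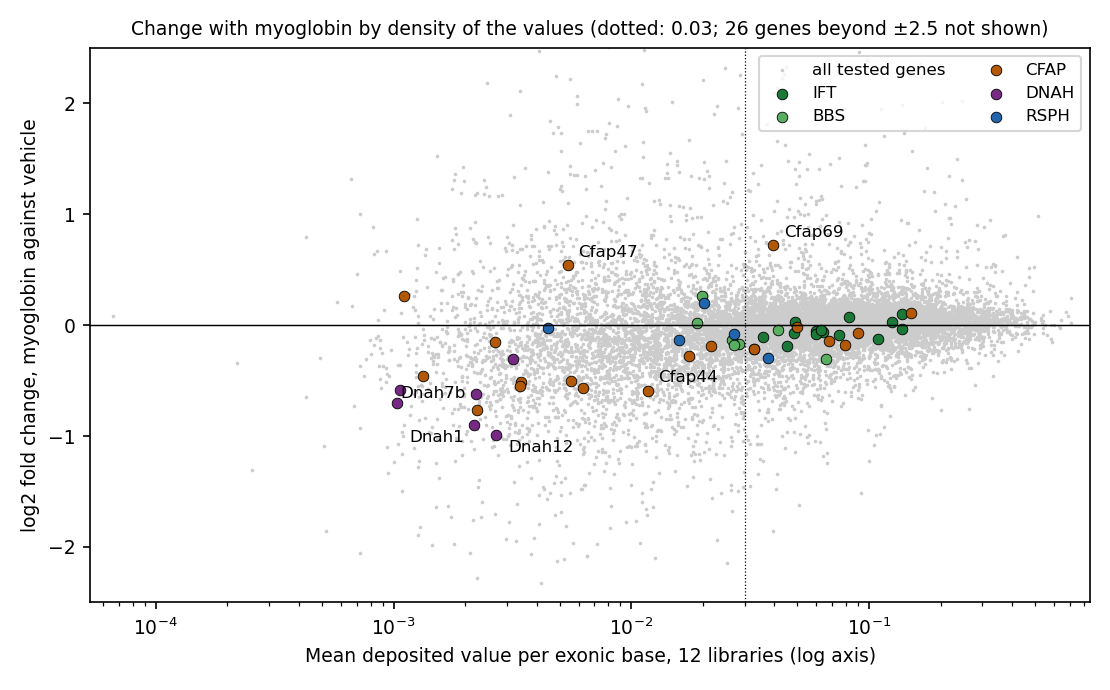
The log2 fold change of each tested gene with myoglobin against its mean deposited value per exonic base over the 12 libraries (log axis), with cilia genes coloured by family and 26 genes outside the plotted range of changes. All 6 tested Dnah genes lie below 0 and left of the dotted line at 0.03, from 0.00104 (Dnah14) to 0.00319 (Dnah11). The median of all genes left of that line is -0.12, which is not a median at the density of the Dnah genes.

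Of the dynein tethers, which hold an inner arm on the axoneme, Cfap44 (chr16:44394796-44482428, plus strand) had 147, 153, 120 and 112 with vehicle, 88, 100, 65 and 101 with myoglobin, and 102, 74, 68 and 58 with both. All treated libraries lay below all vehicle libraries, and Cfap44 fell by 0.59 ± 0.17 with myoglobin (limma adjusted p = 0.026). That p was 0.0721 and 0.0876 without vehicle replicate 1 or 2 and 0.0918 without myoglobin replicate 3. With replicate 1, 2 or 3 of all groups left out it was 0.0595, 0.125 or 0.138. Boc, the next gene on the opposite strand, fell as well (-0.46 ± 0.089, adjusted p = 0.00165 by limma), and was named after its value had been seen. Spice1, the neighbour on the other side and on the same strand, changed by -0.19 ± 0.071 (limma adjusted p = 0.0804) with myoglobin and fell by 0.29 ± 0.071 with both agents (limma adjusted p = 0.00686).

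Cfap69 had the largest rise. It is known for sperm flagella and olfactory cilia (chr5:5579278-5664239, minus strand), and it had 228, 238, 214 and 183 with vehicle, 403, 370, 321 and 331 with myoglobin, and 419, 364, 355 and 332 with both. Every treated library exceeded every vehicle library, and the group means were 215.75 ± 23.95, 356.25 ± 37.7 and 367.5 ± 36.9 (SD, n = 4). With myoglobin it rose by 0.72 ± 0.092 (limma adjusted p = 4.05e-05), and it was called in every alternative run. Steap2 and Steap1, metalloreductase-family genes that lie upstream on the same strand, were looked at after the value of Cfap69 was known. Steap2 ends 590 bases from the start of Cfap69 and rose by 0.29 ± 0.061 (adjusted p = 0.00304), and Steap1 rose by 0.46 ± 0.065 (adjusted p = 1.0e-04, both by limma). On the other side, Gtpbp10 and Cldn12 changed by 0.08 ± 0.080 and 0.07 ± 0.038 and were not called. Whether reads of one gene were counted for the other was not tested.

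Cfap47 of the central pair (X chromosome) had 52, 41, 41 and 37 with vehicle, 69, 57, 62 and 61 with myoglobin, and 59, 39, 69 and 51 with both. Vehicle and myoglobin did not overlap, whereas the libraries with both agents overlapped both. It rose by 0.54 ± 0.16 with myoglobin (limma adjusted p = 0.0312). The adjusted p was 0.0757, 0.0761 and 0.0836 without vehicle replicate 2, 3 or 4, and 0.081, 0.0675 and 0.0607 without myoglobin replicate 1, 3 or 4. With replicate 1, 2, 3 or 4 of all groups left out it was 0.0548, 0.0621, 0.12 or 0.0916. The other tested genes classed here as central pair, a class that leaves out Cfap69, were not called. Their changes were -0.76 ± 0.30 for Cfap46, -0.46 ± 0.25 for Cfap54 and -0.15 ± 0.29 for Cfap74.

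**Figure D5:**
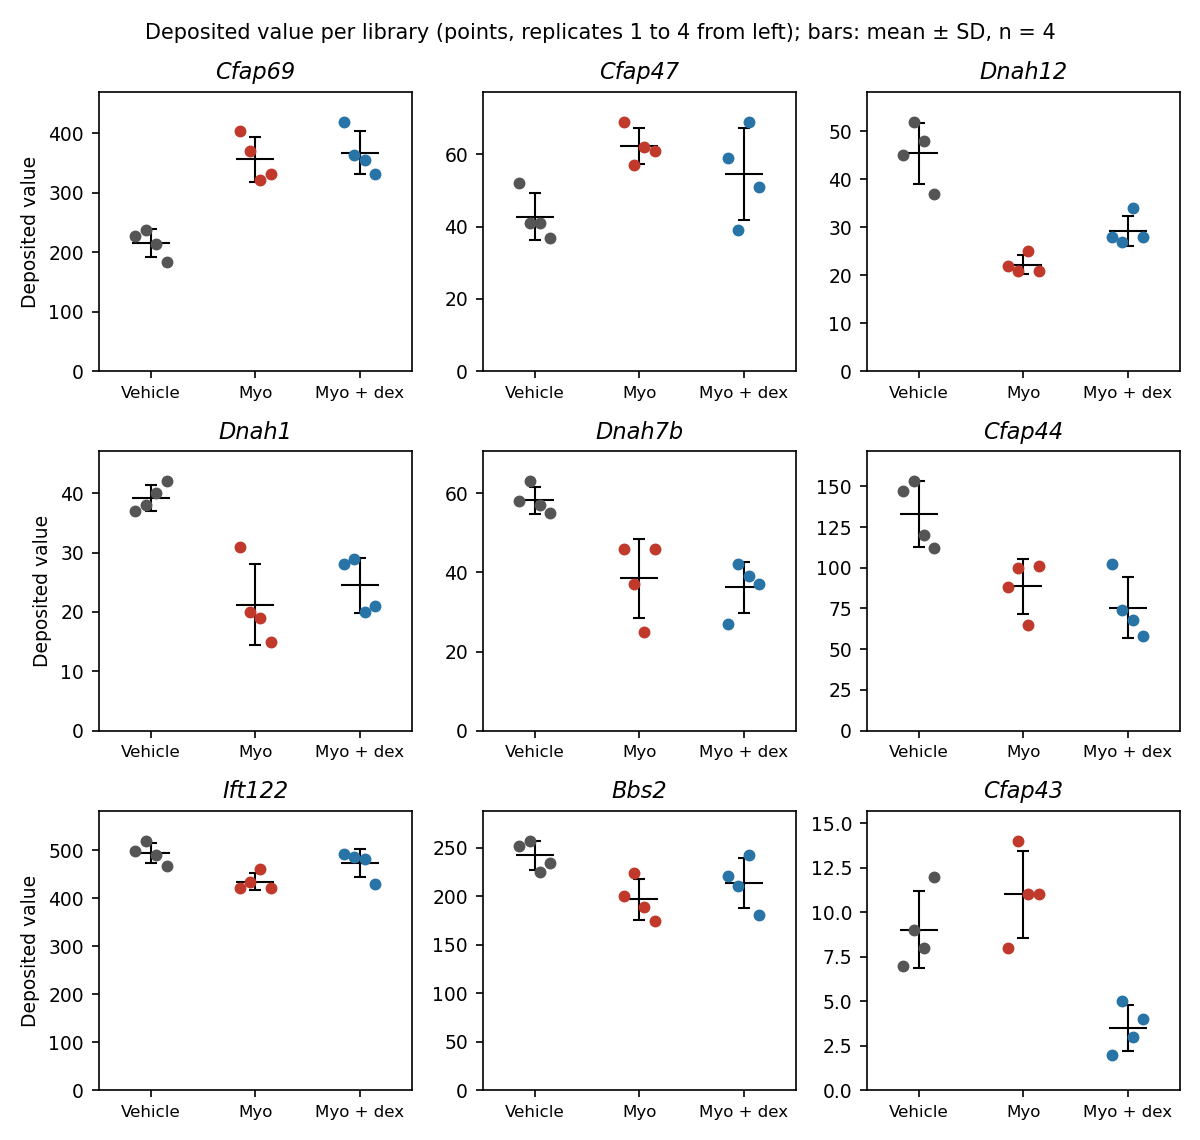
Deposited value in each library (points, replicates 1 to 4 from left) with mean ± SD (n = 4) for 9 cilia genes in vehicle, myoglobin (Myo) and myoglobin with dexamethasone (Myo + dex). Cfap69 lies between 183 and 238 with vehicle and between 321 and 419 in all treated libraries, and Cfap43 falls to between 2 and 5 with both agents.

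Transport genes moved little with myoglobin. Of the 22 Ift and Bbs genes 2 fell (9.09%) and 0 rose, against 9.62% and 8.71% of all tested genes. The share that fell lay near that of all genes. Of the 14 Ift genes 1 fell and 0 rose, the median change was -0.058, and the 95% intervals of all 14 lay between -0.29 and 0.25 on the log2 scale. The called gene was Ift122, a core subunit of IFT-A, with 499, 520, 491 and 468 with vehicle, 422, 435, 461 and 422 with myoglobin, and 493, 487, 483 and 431 with both. The vehicle and myoglobin values lay apart by little, and the change was -0.18 ± 0.051 (limma adjusted p = 0.0197). That p was 0.073 without vehicle replicate 2, and 0.0543 and 0.06 without myoglobin replicate 1 or 4. With replicate 1, 2 or 3 of all groups left out it was 0.106, 0.163 or 0.0557. Ift88, the Polaris protein of a cystic kidney mouse, had 305, 302, 302 and 301 with vehicle, 305, 307, 284 and 278 with myoglobin, and 286, 276, 271 and 269 with both. Its change with myoglobin was -0.045 ± 0.047. Among the others, Ift140 changed by -0.066 ± 0.048, Ift172 by -0.092 ± 0.065, Ift80 by -0.11 ± 0.048, Ift27 by -0.071 ± 0.084, Ift57 by 0.071 ± 0.064 and Ift20 by 0.098 ± 0.070, none of them called.

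Of the 8 Bbs genes 1 fell with myoglobin and 0 rose, where 9.62% and 8.71% of all tested genes did. The median of the 8 was -0.15. Bbs2 had 252, 257, 225 and 234 with vehicle, 200, 224, 189 and 174 with myoglobin, and 221, 210, 242 and 181 with both. The highest myoglobin value lay just below the lowest vehicle value, and the change was -0.30 ± 0.091 (limma adjusted p = 0.0301). That p was 0.0765 and 0.0935 without vehicle replicate 1 or 2, and 0.0803 and 0.101 without myoglobin replicate 3 or 4. With replicate 1, 2 or 3 of all groups left out it was 0.112, 0.0706 or 0.082. Bbs7, another core subunit, had 98, 98, 91 and 107 with vehicle, 120, 125, 117 and 112 with myoglobin, and 104, 100, 120 and 86 with both. The direction was opposite to that of Bbs2 and the values did not overlap, but the change of 0.27 ± 0.099 was not called (limma adjusted p = 0.0797). Bbs7 was called with quantile normalization (adjusted p = 0.0169), with only the 2 groups in the fit (0.0301) and without replicate 4 of both agents (0.0284). Bbs1, Bbs4, Bbs5, Bbs9, Bbs10 and Bbs12 had changes between -0.22 (Bbs12) and 0.02 (Bbs9) that were not called.

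Of the genes inside the doublet microtubules, Cfap20 had 393, 372, 402 and 366 with vehicle, 353, 334, 323 and 339 with myoglobin, and 335, 304, 335 and 369 with both. The vehicle and myoglobin values did not overlap, and it fell by 0.18 ± 0.057 (limma adjusted p = 0.0363). This call was lost without vehicle replicate 1, 2 or 3 (0.0881, 0.0559, 0.114), without myoglobin replicate 2, 3 or 4 (0.0823, 0.107, 0.0694), and with no filter on low values (0.0504). It was also lost with replicate 1, 2 or 3 of all groups left out (0.0929, 0.0895, 0.292). The other Cfap and the Rsph genes were not called. Cfap298 changed by 0.11 ± 0.087, Cfap36 by -0.070 ± 0.051 and the ciliogenesis factor Cfap410 by -0.21 ± 0.084. The last was called without vehicle replicate 4 (limma adjusted p = 0.0442). Rsph9 changed by -0.30 ± 0.12 and Rsph3a by 0.20 ± 0.11, and Rsph1 by -0.14 ± 0.20. Reads of Rsph3a and Rsph3b, which are close copies, and of Rsph10b, which shares 13.2% of its exonic bases with Pms2 and Gm42421, are uncertain.

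The second comparison asks what dexamethasone changed in the presence of myoglobin. It shares the myoglobin libraries with the first. Of the 52 tested cilia genes 0 were called higher and 1 lower (1.92%), where 3.08% and 3.9% of all tested genes were, and 6.98% in either direction. Without adjustment 7 of 52 had a limma p below 0.05, as had 3226 of all 14558 tested genes. Without replicate 4 of both agents 1 cilia gene was called higher and 1 lower. The median change was 0.004, against 0.0063 for all tested genes, and 24 of 52 changes were negative. The groups did not overlap for 3 of 52 genes (5.77%), against 13.2% of all: Cfap43 was lower with both agents, and Dnah12 and Ift52 were higher.

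The called gene was Cfap43, the tether partner of Cfap44 (chr19:47736857-47919287, minus strand). Its values were 7, 9, 8 and 12 with vehicle, 8, 14, 11 and 11 with myoglobin, and 2, 5, 3 and 4 with both agents. The libraries with both agents lay below all others, at very low values. The change with dexamethasone was -1.44 ± 0.29 on the log2(value + 1) scale (limma adjusted p = 0.00779), and it was -0.64 with a pseudocount of 10 and -1.67 with 0.1, called in both. As none of the libraries with both agents reached the filter, the p is a description. With no filter on low values the adjusted p was 0.0121. Without replicate 4 of both agents it was -1.50 (adjusted p = 0.00752). With replicate 2 or 3 of all groups left out the adjusted p was 0.0563 or 0.0849, and with a filter of at least 30 in place of 10 the gene was not tested. The annotated start of Cfap43 lies 12 bases from that of Itprip on the same strand, and the RefSeq start lies 81926 bases further in. The genes share 2.32% of the exonic bases of Cfap43 (with Gm22240). Itprip, named after its value was seen, fell from 139.25 ± 10.97 to 84.0 ± 5.60 with dexamethasone (-0.72 ± 0.091, limma adjusted p = 0.000214). Whether reads from Itprip were counted for Cfap43 was not tested.

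Dnah12 was 0.38 ± 0.15 higher on the log2 scale with both agents than with myoglobin, which was not called (limma adjusted p = 0.162, 95% interval 0.05 to 0.70). Dnah1 differed by 0.23 ± 0.21 and Dnah7b by -0.064 ± 0.19. Cfap69 differed by 0.045 ± 0.092, with an interval of -0.15 to 0.24, and Cfap44 by -0.24 ± 0.17. The 95% intervals of all 14 Ift genes lay between -0.27 and 0.23. In this family Ift122 differed by 0.12 ± 0.051 (limma adjusted p = 0.183), and without replicate 4 of both agents it was called at 0.17 (adjusted p = 0.0273). Those of the 8 Bbs genes lay between -0.50 and 0.31, with -0.18 ± 0.082 for Bbs1 and -0.22 ± 0.099 for Bbs7.

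The third comparison sets both agents together against vehicle, and it shares libraries with each of the others. Of the 52 tested cilia genes 1 rose (1.92%) and 10 fell (19.2%), against 13.9% and 14.6% of all tested genes, 28.6% in either direction. Without replicate 4 of both agents 1 rose and 7 fell. The share that rose was below that of all genes, and the share that fell lay near that of all genes. The 10 that fell include Cfap43 and Cfap52, which passed the filter mainly through the group where they were high, so this share is a description. The changes were negative for 39 of 52 (75%) and for 49.5% of all genes, and the medians were -0.14 and 0.0017. Under 0.03 value per exonic base, where 21% of all genes were called lower, 8 of 27 cilia genes (29.6%) were, Cfap43 and Cfap52 among them. Values did not overlap for 10 of 52 genes (19.2%), against 28.6% of all.

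Cfap69 rose by 0.77 ± 0.092 (limma adjusted p = 1.82e-05). Of 6 tested Dnah genes 3 fell, where 14.6% of all tested genes were called lower. Dnah12 changed by -0.62 ± 0.15 (0.00734), Dnah7b by -0.69 ± 0.19 (0.0137) and Dnah1 by -0.68 ± 0.21 (0.0236), with limma's adjusted p in parentheses. Of the tethers, Cfap44 fell by 0.83 ± 0.17 (0.00233). Cfap43 changed by -1.18 ± 0.29 (0.00779), which is a description and supports nothing, as none of its libraries with both agents reached the filter. Cfap69 and Cfap44 were called in every alternative run. Dnah1 was not called without vehicle replicate 3 or 4 (0.0554, 0.0579), without replicate 3 of both agents (0.0626) or with quantile normalization (0.0833). With 1 number left out of all groups, Dnah1 was not called for 2, 3 or 4 (0.0663, 0.138, 0.0697), Dnah7b for 1 or 2 (0.0627, 0.0622) and Cfap43 for 3 (0.051). With quantile normalization Dnah12 changed by -0.42 and was not called, with a limma adjusted p that rounds to 0.05. With replicate 2 of all groups left out its adjusted p was 0.0857. Some genes were called in alternatives only. Cfap410, Rsph9 and Ift80 were called with upper-quartile scaling (0.0377, 0.0454 and 0.044) and with equal library totals (0.0351, 0.0419 and 0.0471). Dnah2 was called without replicate 3 of both agents (0.0385), and Cfap47 and Rsph3a with quantile normalization (0.0333 and 0.0383).

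Of 5 tested doublet genes 2 fell, Cfap52 and Cfap20, where 14.6% of all tested genes were called lower. Cfap52, a microtubule inner protein, had 14, 10, 10 and 10 with vehicle, 4, 11, 8 and 7 with myoglobin, and 4, 8, 5 and 4 with both. All its values were near the filter, and it fell by 0.97 ± 0.31 with both agents (limma adjusted p = 0.0294). This p is a description, since 4 of the 5 libraries that took Cfap52 past the filter were vehicle. With no filter on low values it was 0.0441. The fall of Cfap52 lost its call without any 1 of the 4 vehicle libraries (0.0809, 0.054, 0.0528 and 0.0504 in the order 1 to 4), without replicate 1, 3 or 4 of both agents (0.0674, 0.052, 0.0582) and with quantile normalization (0.0985). It was also lost with replicate 1, 3 or 4 of all groups left out (0.114, 0.104, 0.094). Cfap20 fell by 0.19 ± 0.057 (limma adjusted p = 0.0208), which was lost without vehicle replicate 1 or 3 (0.051, 0.0677) or replicate 2 of both agents (0.0632). It was also lost with replicate 1, 2 or 3 of all groups left out (0.0812, 0.113, 0.121).

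Of the 22 transport genes, 1 Ift and 2 Bbs genes fell with both agents (13.6%), near the 14.6% of all tested genes called lower. Bbs1, the BBSome subunit that binds the GTPase Arl6, had 239, 236, 207 and 220 with vehicle, 223, 203, 179 and 219 with myoglobin, and 194, 188, 182 and 160 with both. The libraries with both agents lay below all vehicle libraries, the myoglobin values overlapped both, and Bbs1 fell by 0.32 ± 0.082 (limma adjusted p = 0.00929). That p was 0.0653 with replicate 2 of all groups left out. Bbs10, a chaperonin-like assembly factor, had 106, 87, 100 and 99 with vehicle, 92, 98, 75 and 83 with myoglobin, and 96, 64, 81 and 62 with both. Its groups overlapped, and it fell by 0.39 ± 0.14 (adjusted p = 0.0459). Ift88 fell by 0.13 ± 0.047 (adjusted p = 0.0445), with values given above that did not overlap. The last 2 calls are near the threshold. With replicate 1, 2, 3 or 4 of all groups left out Ift88 was not called (0.0795, 0.144, 0.165, 0.0879). Nor was Bbs10 with replicate 2, 3 or 4 of all groups left out (0.127, 0.106, 0.175). Ift88 was not called with no filter on low values (0.0711), quantile normalization (0.0534) or only the 2 groups in the fit (0.0636), nor Bbs10 with the last pair of settings (0.155, 0.0705). Ift88 was not called in 8 of the 12 fits that left out 1 library (adjusted p from 0.0521 without myoglobin replicate 3 to 0.0873 without replicate 3 of both agents). Those with the call were without myoglobin replicate 1, 2 or 4 and without replicate 1 of both agents. Bbs10 was also lost in 8 of the 12 such fits, with adjusted p from 0.052 without myoglobin replicate 2 to 0.119 without replicate 2 of both agents, and it kept the call without vehicle replicate 2, myoglobin replicate 3, or replicate 1 or 3 of both agents.

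Cilia genes with other names, in lists chosen with earlier results of these data known, were tested in the same fit. With myoglobin 1 of 11 tested further IFT genes fell, Wdr19 of IFT-A (-0.23 ± 0.066). Of 12 motor genes 1 fell, Dync2h1, the heavy chain of the return motor (-0.23 ± 0.073), and of 9 further BBSome-related genes 1 fell, Rab3ip, an activator of Rab8 (-0.22 ± 0.066). None of these 3 lists had a called rise with myoglobin, where 9.62% of all tested genes were called lower and 8.71% higher. Medians were -0.034, 0.024 and -0.058.

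Of 25 tested genes of the transition zone, the gate at the base of the cilium, and its neighbourhood, 5 fell with myoglobin and 0 rose, with a median of -0.053. Over all tested genes 9.62% were called lower and 8.71% higher. The 5 were Anks6 (-0.64 ± 0.068, limma adjusted p = 6.06e-06), Glis2 (-0.54 ± 0.068), Cc2d2a (-0.31 ± 0.062), Nek8 (-0.33 ± 0.073) and Rpgrip1 (-0.84 ± 0.21). Of these, Anks6 and Nek8 belong to the inversin compartment next to the gate and Glis2 is a transcription factor, and each is a cystic or nephronophthisis gene. Anks6 went from a mean of 216.0 with vehicle to 138.5 with myoglobin and 138.75 with both. Of 16 ciliary membrane and signalling genes 4 fell and 0 rose: Evc, Pkhd1, Inpp5e and Evc2. Pkhd1, the gene of recessive polycystic kidney disease, fell by 0.25 ± 0.059 (limma adjusted p = 0.00661).

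Of 33 tested motile axoneme genes with other names, 3 fell with myoglobin and 1 rose, where 9.62% and 8.71% of all tested genes did. The median of the 33 was -0.18. Among them, Spag17 of the central pair fell by 1.16 ± 0.35 from a mean of 13.25 to 5.5, and the axonemal ruler gene Ccdc39 changed by -0.48 ± 0.16. Every vehicle library of Spag17 reached the filter value and no myoglobin library did. Its call, and the count of 3 falls that includes it, are therefore descriptions and support nothing. The gene that rose was Dnaaf5, a dynein assembly factor (0.22 ± 0.063). Of 22 basal body and assembly genes 2 rose with myoglobin and 0 fell, Ehd1, which shapes membrane in early ciliogenesis (0.57 ± 0.061, limma adjusted p = 7.30e-06), and Cep152, a centriole duplication factor (0.20 ± 0.066).

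With dexamethasone added to myoglobin, 3 of the 22 basal body genes fell and 0 rose, where 3.9% and 3.08% of all tested genes did: Plk4 (-0.44 ± 0.070), Cep152 (-0.41 ± 0.066) and Kif24 (-0.54 ± 0.12), with limma adjusted p of 0.00139, 0.0016 and 0.016. Plk4 and Cep152 act in centriole duplication, and Kif24 is a kinesin that restrains cilium assembly. Cell cycle genes moved in the same comparison: 14 of 25 fell and 0 rose, with a median of -0.28, among them E2f1 (-0.80 ± 0.089). The part of the cell cycle in these falls was not tested. Gli3, a Hedgehog transcription factor, fell by 0.96 ± 0.10 (limma adjusted p = 4.86e-05), the only call among the 16 membrane and signalling genes. Among other axoneme genes Ak7 (-1.01 ± 0.25) and Mns1 (-0.42 ± 0.12) fell. The further IFT, motor, BBSome and transition zone lists had 0 calls in this comparison. An unadjusted limma p below 0.05 was found for 0 of 11, 1 of 12, 0 of 9 and 3 of 25 tested genes, against 3226 of all 14558.

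With both agents against vehicle, 6 of 25 transition zone genes fell and 0 rose, led by Glis2 (-0.73 ± 0.068) and Anks6 (-0.63 ± 0.068), with a median of -0.14. Of the basal body genes 7 of 22 fell and 2 rose, with Ehd1 0.58 ± 0.061 higher and Sclt1, a distal appendage gene, 0.34 ± 0.069 lower. The membrane and signalling list had 4 of 16 lower and 0 higher, led by Gli3 (-1.02 ± 0.10). Of all tested genes 14.6% were called lower and 13.9% higher in this comparison. Of the axoneme genes with other names 2 of 33 fell, Mns1 (-0.58 ± 0.12) and Ccdc39 (-0.51 ± 0.16), and 0 rose. In the further IFT genes Wdr19 fell (-0.22 ± 0.066) and Tulp3, an adaptor of IFT-A, rose (0.12 ± 0.038), and in the motors Dync2h1 fell (-0.30 ± 0.073) and Kif3b, a subunit of the outward motor, rose (0.14 ± 0.044).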

How the data were processed

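The deposited table holds whole-number values for 20819 genes in 12 libraries. Its unit here is a score, since what the authors deposited are reads scaled by library and rounded, as the steps between neighbouring values show. Per the submitters' processing notes the build was mm10, and the tools listed, with no role given, were DESeq2 1.36.0, featureCounts 2.0.3, Picard 2.27.4, STAR 2.7.10a and Trimmomatic 0.39. Messenger RNA libraries were made with a stranded kit, per the labels' protocols.

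Since a model of counts needs unscaled counts, limma-trend (limma 3.58.1, R 4.3.3), the named replacement, was run on log2(value + 1). It was fitted to all 3 groups and to the 14558 genes that reached 10 in at least 4 libraries, with two-sided p-values and Benjamini-Hochberg adjustment over these genes in each comparison. A gene was called at an adjusted p below 0.05, and "rose" and "fell" are used of called genes only. Low genes have their changes understated on this scale. The fit was tested on simulated data. Python 3.11.15, pandas 2.3.3, numpy 2.4.6 and matplotlib 3.10.9 made tables and plots.

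Exonic lengths came from GENCODE M21, in which 20592 genes (98.9%) have the table's coordinates. Promoters came from RefSeq (GRCm38.p6), matched by symbol. Members and lists were chosen with earlier results of these data known. Named genes are a fixed set of main subunits, every called member, the 3 highest per kilobase in each family, those just under the filter, and up to 3 called genes of each list and comparison; neighbouring genes and a few others were added after their values were seen. Alternatives were the pseudocount, the filter, 3 other scalings, a 2-group fit, a replicate block, and leaving out libraries. Some results of the gene lists are not reported here.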

Additional observations from a re-analysis of the deposited data

Results flagged for a closer look

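Among 40 named cilia genes, 120 groups of 4 libraries were searched for a single library far from the other 3, and 10 were found. Chance gives about 1 in 20 groups for continuous values. Several of the 10 are small whole numbers with ties, so the count cannot be set against that rate. Replicate 4 with both agents, the library with the fewest reads, was lowest for Ift122 (431, others 483 to 493) and for Ift140 (478, others 525 to 530). Ift27 had 128 in vehicle replicate 4 (others 149 to 153) and 156 in myoglobin replicate 3 (others 131 to 133). Dnah12 had 34 in replicate 3 with both agents (others 27 to 28). The rest concern low values: Cfap52 had 14 in vehicle replicate 1 (others 10), Rsph4a had 6 in replicate 3 with both agents (others 11), and Dnah5 had 4 in replicate 1 with both agents (others 0). Dnah9 had 1 in vehicle replicate 1 and 1 in replicate 2 with both agents (others 0).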

How the results depend on the processing

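No called change turned its direction in any alternative; sign changes of genes called in neither fit were not followed. With myoglobin, the 2 cilia genes higher became 1 to 3 and the 7 lower became 1 to 8 as libraries were left out, 1 at a time or all of 1 number. Fewest were lower without replicate 2 or 3 of all groups (1 each), and among single libraries without vehicle replicate 2 (2). With dexamethasone added, 0 higher became 0 to 1 (1 without replicate 4 of both agents) and 1 lower became 0 to 1, and it was 0 with a filter of at least 30. For both agents against vehicle, 1 higher became 1 to 2 and 10 lower became 3 to 10, and quantile normalization gave 3 higher and 6 lower. Other scalings, pseudocounts, no filter and the 2-group fit kept all 6 counts within 1.5 times.

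The replicate block gave 2 higher and 9 lower with myoglobin, 0 and 1 with dexamethasone added, and 1 and 13 for both agents against vehicle, where the added calls included Dnah2 (-1.07, limma adjusted p = 0.0271) and Ift140 (-0.11, 0.0487). The same-numbered libraries did not all deviate together: of 12 pairs 9 had a correlation over 0.1, and the range was -0.015 to 0.456, so the numbers were not treated as pairs. Of 12 libraries 10 correlated best with their own number, a hint from the data and not from the design. Depth limits the genes of a few reads, above all those with values under 10.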
